A study of Mus musculus with 32 samples.

Results

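The 7 kidneys described here came from NZB/W mice, a hybrid strain that develops lupus nephritis spontaneously, at 30 weeks of age. They were labelled non-proteinuric, and their labels named no treatment. They were taken by sample title, as 7 of the 32 kidney samples of the series. The other samples, used here only to set the spread beside, were NZB/W kidneys taken after treatment with CTX (cyclophosphamide), CTLA4Ig and anti-CD154, called triple therapy, at early remission (8 samples) or late remission (6 samples), NZB/W kidneys at late remission after Ad-TACI-Ig with CTLA4Ig (5 samples), and kidneys of NZM2410 mice, a related lupus strain, in remission after Ad-BAFF-R-Ig (6 samples). The labels gave no age for the treated groups. Whole kidneys were hybridized to Affymetrix arrays, and all values are log2 expression, 1 unit being a 2-fold difference. The kidneys are called kidneys 1 to 7 after the replicate numbers in their labels. The names of kidneys 2 and 3 share part of a code, as do those of kidneys 5 and 6, and the code of kidney 6 recurs in the name of an early remission sample. The labels do not say what the codes mean or whether each sample came from a separate mouse, so the tests measure the spread between samples.

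A kidney taken whole holds many compartments: podocytes that form the glomerular filter, proximal tubule cells that reabsorb most of the filtrate, distal segments that set its final composition, blood vessels, and resident or infiltrating leukocytes. In lupus nephritis, immune complexes deposit in glomeruli, myeloid and lymphoid cells enter the tissue, and tubules lose differentiated function. Renal transcripts also follow the time of day through the circadian clock and follow feeding through lipid synthesis and fat oxidation. The adrenal gland lies against the upper pole of the kidney and makes glucocorticoids in its cortex and catecholamines in its medulla.

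The tissue label was borne out by kidney markers. Umod, the thick ascending limb protein uromodulin, lay between 13.34 and 13.62 in the 7 kidneys. Slc34a1, the sodium-phosphate transporter of the proximal tubule, lay between 12.36 and 13.39, and Aqp2, the collecting duct water channel, between 9.46 and 10.44. The array medians differed little, from 7.06 to 7.10, and the correlation of values between 2 kidneys ranged from 0.958 to 0.991.

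Of 15780 named genes, 10655 had a group mean of at least 6, and these were ranked by their standard deviation (SD) over the 7 kidneys. The median SD was 0.14, with a 5th percentile of 0.0664 and a 95th percentile of 0.365. An SD of at least 0.5 was reached by 236 genes (2.21%) and an SD of at least 1 by 30 genes (0.282%). The widest gene had an SD of 2.14. Ranking by SD is a description of these 7 kidneys, with no test attached.

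Kidney 2 stood apart from the others. With each kidney set against the median of the others, it was the farthest in 156 of the 236 genes with an SD of at least 0.5. It was high in 128 of these and low in 28, whereas each other kidney was farthest in 3 to 20. Without it, 106 genes had an SD of at least 0.5 and 18 an SD of at least 1, and the median SD was 0.114. It also had the highest 3' over 5' signal for 3 control transcripts, a ratio used to check RNA integrity. For actin the log2 difference was 0.94 in kidney 2 and between 0.49 and 0.90 in the others. For pyruvate carboxylase it was 3.28 against 2.28 to 2.96, and for Gapdh 0.17 against -0.05 to 0.06. The part of these RNA differences in the results below was not tested, and spreads, scores and pairs that rest on kidney 2 are given with and without it.

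**Figure D1:**
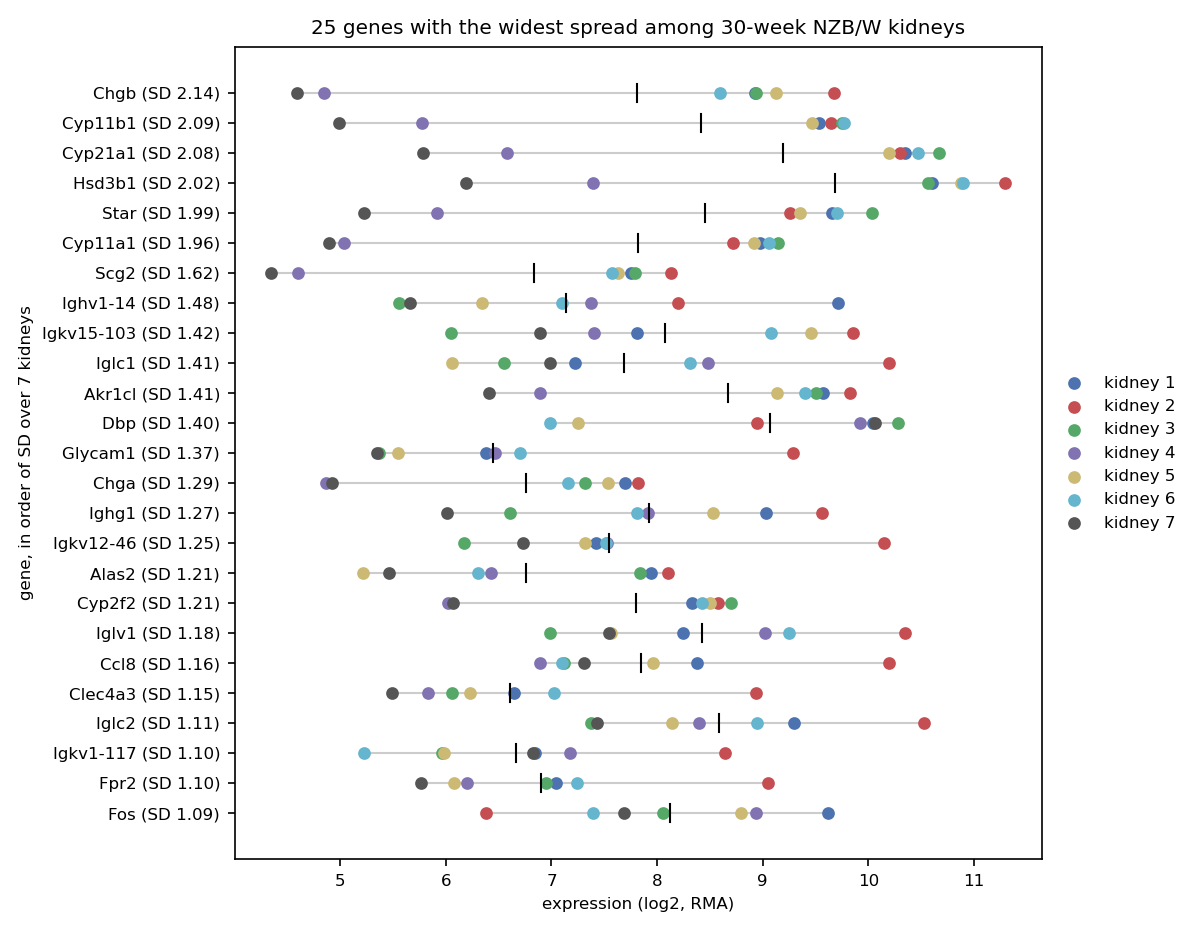
Expression (log2, horizontal axis) of the 25 genes with the highest SD among those with a mean of at least 6, with 1 point for each of the 7 kidneys. The genes at the top, from Chgb (SD 2.14) to Scg2 (SD 1.62), are split by the low values of kidneys 4 and 7, whereas Glycam1, Igkv12-46, Ccl8 and Clec4a3 are stretched by a high value of kidney 2.

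The 7 widest genes, those with an SD of at least 1.5, were 5 adrenal cortex genes, the adrenal medulla gene Chgb and Scg2, a granule protein outside the fixed lists. Kidneys 4 and 7 were the lowest kidneys in all 9 adrenal cortex genes with a mean of at least 6 and in 5 of the 6 adrenal medulla genes, an order found in 4.03% of the 10655 genes. Cyp11b1, the enzyme that makes corticosterone, had a lowest value of 4.98, a median of 9.53 and a highest of 9.77, a 27.5-fold range. The 5 high kidneys lay within 9.47 to 9.77, and kidneys 4 (5.77) and 7 (4.98) did not overlap them. Star, which carries cholesterol into mitochondria for steroid synthesis, ranged from 5.23 to 10.03 with a median of 9.36. Cyp11a1, which makes the first cut in that cholesterol, ranged from 4.89 to 9.15 with a median of 8.92. Hsd3b1 and Cyp21a1, 2 later enzymes of the pathway, ranged over 34.5-fold and 29.6-fold. In each of these genes the same 5 kidneys were close together and the same 2 were far below.

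Medulla genes had the same order. Chgb, a chromogranin of secretory granules, had a lowest value of 4.59, a median of 8.93 and a highest of 9.68. Chga, the other chromogranin, lay at 4.86 and 4.92 in kidneys 4 and 7 and between 7.15 and 7.82 in the rest. Scg2, which lies in the same granules, ranged from 4.35 to 8.13 with a median of 7.63. The catecholamine enzymes Th, Dbh and Pnmt spanned less, for instance Th from 5.80 to 7.22. The medulla gene that broke the order was Slc18a1, a monoamine transporter, which was lowest in kidney 2 (8.58) and lay at 9.53 in kidney 4 and 9.73 in kidney 7. Mc2r, the ACTH receptor, lay at 5.53 and 5.40 in kidneys 4 and 7 and between 7.13 and 7.54 in the rest. As these are whole tissues, a lower number of cells of a type and less RNA per cell cannot be told apart here or below. Of 10 cortex genes 9 were measured, and the mean of their log2 values ranged from 5.67 in kidney 7 to 8.75 in kidney 6. Its relation to how the kidneys were dissected was not tested.

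Outside the cortex list, 13 genes with an SD of at least 0.5 followed its score (the mean deviation of the list's genes from their means) at a correlation of at least 0.9. Beside medulla genes and Scg2 these were, among others, Akr1cl, an aldo-keto reductase (6.40 to 9.82), Cyp2f2, a cytochrome P450 (6.02 to 8.70), Scarb1, the receptor that takes up HDL cholesterol (7.17 to 8.90), Mgarp, a mitochondrial protein of steroidogenic cells (5.85 to 7.89), and the long noncoding RNA Meg3 (7.13 to 8.27). All 5 were lowest in kidneys 4 and 7, and such correlations rest on the gap between these kidneys and the other 5. Scarb1, Mgarp and Meg3 were named after their values were seen.

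The promoters of the medulla genes Chgb and Th and of Scg2 are shown because their transcripts moved together and each window holds the palindrome TGACGTCA, the cyclic AMP response element. The sequences are from RefSeq (GRCm38.p6), run 5′ to 3′ on the gene's strand from 250 bases before to 50 after the start site, and have the match in capitals. Of 15 adrenal genes searched on both strands, 7 had a window, and 3 held the element, against 1.79% of all 32851 windows. Counted from the start site, the match begins at -72 in Chgb, -68 in Scg2 and -45 in Th.
Chgb (chr2:132781392-132781691, plus strand): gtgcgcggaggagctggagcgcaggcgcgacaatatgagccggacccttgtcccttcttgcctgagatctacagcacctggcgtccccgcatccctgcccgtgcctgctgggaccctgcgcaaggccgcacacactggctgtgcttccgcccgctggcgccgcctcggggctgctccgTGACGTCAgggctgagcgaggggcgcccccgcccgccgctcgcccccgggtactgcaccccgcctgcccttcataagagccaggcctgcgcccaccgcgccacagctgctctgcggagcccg
Scg2 (chr1:79439977-79440276, minus strand): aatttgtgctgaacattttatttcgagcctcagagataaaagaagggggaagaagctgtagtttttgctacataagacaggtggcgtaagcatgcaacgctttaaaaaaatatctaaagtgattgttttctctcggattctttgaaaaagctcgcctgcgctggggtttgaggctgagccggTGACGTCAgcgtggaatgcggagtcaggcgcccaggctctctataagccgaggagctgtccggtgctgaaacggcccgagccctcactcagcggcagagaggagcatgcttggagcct
Th (chr7:142899946-142900245, minus strand): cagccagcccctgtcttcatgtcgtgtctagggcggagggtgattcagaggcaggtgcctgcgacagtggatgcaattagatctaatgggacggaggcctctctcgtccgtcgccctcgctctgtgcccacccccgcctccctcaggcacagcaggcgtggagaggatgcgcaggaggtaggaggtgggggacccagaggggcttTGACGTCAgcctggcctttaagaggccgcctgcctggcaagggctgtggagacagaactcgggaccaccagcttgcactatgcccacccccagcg

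A wide range of adrenal transcripts was also found in early remission. The mean of Cyp11b1 in the 7 kidneys of 30 weeks was 8.42, with an SD of 2.09. The 8 early remission kidneys had a mean of 7.45 with an SD of 1.99 and ranged from 4.66 to 9.45. In late remission after triple therapy it lay between 6.92 and 7.21 (SD 0.11, n = 6). In late remission after TACI-Ig with CTLA4Ig it lay between 5.01 and 5.42 (SD 0.18, n = 5), and in NZM2410 between 4.89 and 5.22 (SD 0.11, n = 6). Chgb had SDs of 2.14 at 30 weeks, 1.98 in early remission, 0.25 after late triple therapy, 0.14 in the TACI-Ig group and 0.05 in NZM2410. For both genes the first 2 groups were the widest. Of the 30-week kidneys, kidney 7 lay within the NZM2410 range of Cyp11b1, kidney 4 (5.77) lay above the TACI-Ig range, and the other 5 lay above every late remission sample.

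Circadian clock genes kept their spread without kidney 2. The 15 with a mean of at least 6 had a median SD of 0.51, the same with and without kidney 2, against 0.14 for all genes, and 8 of the 15 reached an SD of 0.5. The clock is a feedback loop in which Arntl and Clock drive the Per genes and the output factors Dbp and Tef, while Nr1d1 and Nr1d2 repress Arntl. Dbp lay at 9.92 to 10.29 in kidneys 1, 3, 4 and 7, at 8.94 in kidney 2, and at 7.25 and 6.99 in kidneys 5 and 6. Arntl ran the other way, between 6.69 and 6.77 in the first 4, at 7.53 in kidney 2, and at 9.07 and 8.26 in kidneys 5 and 6. Kidneys 5 and 6 did not overlap the other 5 in either gene. They were the lowest in 7 of the 15 genes, against 9.06% of all genes. The 18S rRNA control, a mean of 3 probe sets, was also highest in them, at 7.68 and 7.16, and lay at 6.95 in kidney 2 and between 5.71 and 6.57 in kidneys 1, 3, 4 and 7. Its part in the clock result and in the other genes of kidneys 5 and 6 was not tested. Per3, a period gene, lay at 6.16 and 5.92 in these kidneys and at 7.06 to 7.10 in kidneys 1, 3, 4 and 7. Per2 was low in kidney 6 (5.39) and kidney 2 (5.71), next in kidney 5, and lay between 6.66 and 7.25 in the rest. Clock and Nfil3, a repressor of D-box genes, were highest in kidneys 5 and 6, as Arntl was, Nfil3 passing the minimum only through them.

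The relation between Dbp and Arntl was among 10 pairs of genes tested over the 7 kidneys with exact two-sided permutation tests. Pearson's r was -0.95 (exact permutation p = 0.00873, adjusted over 10 pairs p = 0.0243), and Spearman's rho was -0.71 (exact permutation p = 0.0881, adjusted p = 0.183). Without kidneys 5 and 6, the farthest from the median of Dbp, r was -0.95 over 5 kidneys. Without kidney 2 it was also -0.95, with an exact permutation p of 0.0611 (adjusted p = 0.153) over 6 kidneys. In the 8 early remission kidneys, where Dbp ranged from 7.92 to 11.36, r was -0.99 (exact permutation p = 4.96e-05, adjusted p = 0.000496) and rho -0.98 (adjusted exact permutation p = 0.00397). The labels gave no time of collection.

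**Figure D2:**
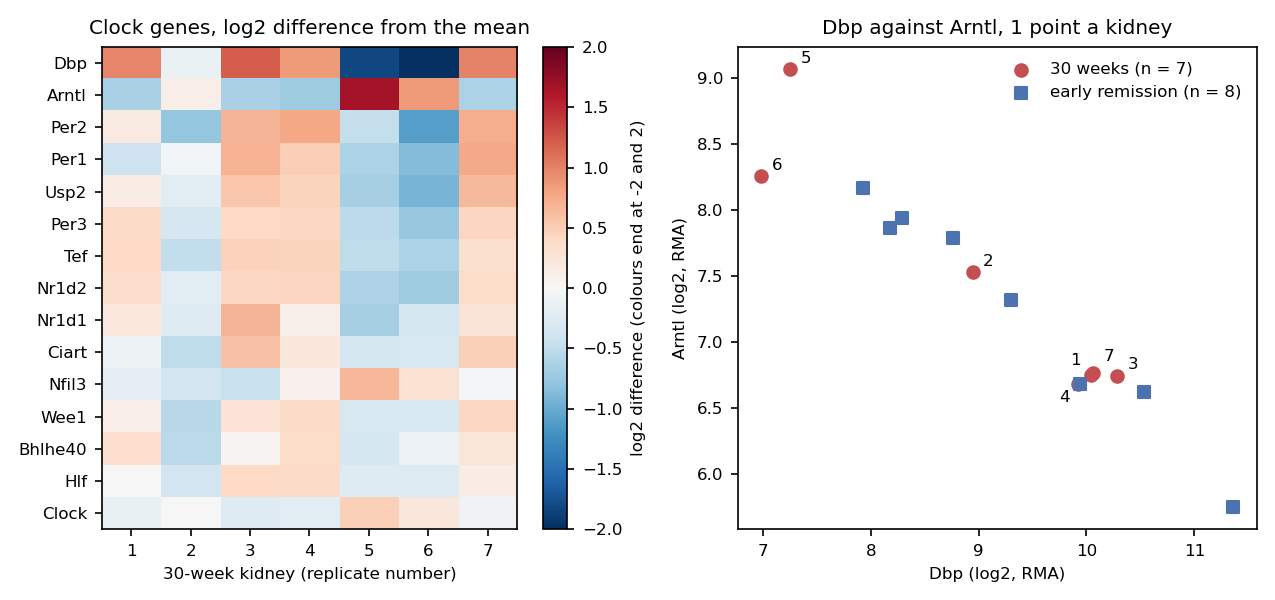
Left, log2 difference of each clock gene from its mean in each of the 7 kidneys. Right, Dbp against Arntl (log2), 1 point a kidney, at 30 weeks and in early remission. Kidneys 5 and 6 sit at the low end of Dbp (7.25 and 6.99) and the high end of Arntl (9.07 and 8.26).

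Clock promoters are shown to place these transcripts beside the elements through which the loop is known to act. Capitals mark the E-box CACGTG, bound by Arntl with Clock, in Tef and Per1, the D-box TTATGTAA, bound by Dbp and Tef, in Per3, and the half-site AGGTCA, read by Nr1d1 and related nuclear receptors, in Arntl. Both strands were searched and the palindromic motifs read alike on both. Of the 15 clock genes, 12 had a window. The E-box stood in 3 of them (Ciart, Per1 and Tef) against 7.15% of all windows, the D-box in Per3 alone against 0.938%, and the half-site in 5 against 16.3%. Of these 4 genes, Tef, Per1 and Per3 were lowest in kidneys 5 and 6, and Arntl highest there.
Tef (chr15:81802423-81802722, plus strand): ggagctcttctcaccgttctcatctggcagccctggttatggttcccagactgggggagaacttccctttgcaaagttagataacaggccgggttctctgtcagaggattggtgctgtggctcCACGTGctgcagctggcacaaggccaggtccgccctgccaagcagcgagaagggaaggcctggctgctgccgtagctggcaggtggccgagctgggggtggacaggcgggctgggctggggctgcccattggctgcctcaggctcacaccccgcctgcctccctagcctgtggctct
Per1 (chr11:69098699-69098998, plus strand): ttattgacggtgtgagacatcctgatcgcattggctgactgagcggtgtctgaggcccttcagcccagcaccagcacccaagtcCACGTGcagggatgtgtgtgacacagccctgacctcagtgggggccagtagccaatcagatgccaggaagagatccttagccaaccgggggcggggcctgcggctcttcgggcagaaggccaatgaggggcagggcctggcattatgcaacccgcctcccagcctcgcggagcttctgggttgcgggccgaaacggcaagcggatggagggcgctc
Per3 (chr4:151044616-151044915, minus strand): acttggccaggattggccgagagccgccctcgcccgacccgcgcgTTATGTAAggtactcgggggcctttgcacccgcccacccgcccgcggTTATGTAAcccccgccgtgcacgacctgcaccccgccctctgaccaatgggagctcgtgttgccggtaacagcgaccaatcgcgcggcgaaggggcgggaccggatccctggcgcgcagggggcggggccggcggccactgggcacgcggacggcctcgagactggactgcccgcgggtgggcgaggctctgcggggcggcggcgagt
Arntl (chr7:113207261-113207560, plus strand): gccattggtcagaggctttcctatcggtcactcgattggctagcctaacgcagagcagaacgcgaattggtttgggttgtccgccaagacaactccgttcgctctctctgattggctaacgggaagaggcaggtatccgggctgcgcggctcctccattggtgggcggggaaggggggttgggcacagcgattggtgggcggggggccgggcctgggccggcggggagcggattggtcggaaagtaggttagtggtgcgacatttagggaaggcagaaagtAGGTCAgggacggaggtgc

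Other genes had kidneys 5 and 6 at one end. Susd3, a membrane protein, lay at 7.70 and 7.61 in kidneys 5 and 6 and between 8.14 and 8.95 elsewhere. Slc16a1, the monocarboxylate transporter of lactate, lay at 7.08 and 7.72 in them and between 6.24 and 6.66 elsewhere. Both were named after their values were seen. The score of glucocorticoid and metallothionein response genes followed the clock score with r = 0.91 over 7 kidneys and 0.90 without kidney 2. In that list Tsc22d3, a glucocorticoid-induced leucine zipper protein, was highest in kidneys 4 and 7 (9.36 in both), and Mt2, a metallothionein, ranged from 9.24 in kidney 5 to 11.19 in kidney 3. The 2 kidneys lowest in Cyp11b1 were thus the highest in Tsc22d3. Fkbp5, a glucocorticoid-induced chaperone, lay at 8.53 in kidney 4 and 8.75 in kidney 7 and between 7.60 and 9.24 in the others, which overlap them.

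Kidney 2 had the highest leukocyte transcripts. It was the highest kidney in 19 of 20 macrophage and dendritic cell genes, 7 of 7 MHC class II genes, 6 of 6 B and plasma cell genes, 13 of 15 interferon response genes, 10 of 14 chemokine genes and 12 of 13 cell cycle genes, against 26.9% of all genes with the same minimum (27.3% with the minimum over all 7 kidneys). These counts, and those for kidney 2 in the next 3 paragraphs, are over genes with a mean of at least 6 in the other 6 kidneys, since Pou2af1, Ccl12, Ccr2, Ccnb2, Cd3d, Glycam1 and Atf3 passed the minimum only through kidney 2. C1qa, a chain of complement C1q made by macrophages, lay at 10.60 in kidney 2, 9.49 in kidney 1 and 8.61 to 9.17 in the rest, and Lyz2, macrophage lysozyme, ranged from 9.30 to 11.94. Ccl8, a monocyte chemokine, lay at 10.19 in kidney 2 and between 6.89 and 8.38 in the others. H2-Aa, an MHC class II chain, lay at 11.88 against 10.25 to 10.75. Mki67, a marker of dividing cells, lay at 8.87 against 7.06 to 7.59. These 5 genes are examples of those highest in kidney 2 and add no support to the counts.

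T cell and lymph node transcripts were sparse. Of 16 measured T cell genes, 3 had a mean of at least 6 over the other 6 kidneys, and kidney 2 was highest in all 3. Cd3d, a chain of the T cell receptor complex, reached the minimum through kidney 2 alone and lay at 7.32 there and between 5.41 and 6.21 in the others. Glycam1, a mucin of lymph node high endothelial venules, lay at 9.28 in kidney 2, and between 5.35 and 6.70 in the others. Ltb, the lymphotoxin that organizes lymphoid tissue, lay at 7.84 against 5.67 to 6.55. These 2 were the lymph node genes, of 8 measured, that passed the minimum, and Glycam1 passed it through kidney 2 alone (mean 5.97 over the other 6). In the other groups Glycam1 reached at most 6.61 in early remission, 7.24 in the TACI-Ig group and 8.02 in late remission after triple therapy. The mean log2 value of the 2 lymph node genes with a group mean of at least 6 ranged from 5.52 to 8.56 over the 7 kidneys and its part in the leukocyte result was not tested. Neutrophil genes did not share the pattern, as kidney 2 was highest in 1 of 5.

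Podocyte and tubule transcripts were low in the same kidney. Kidney 2 was the lowest in 7 of 11 podocyte genes and 12 of 19 proximal tubule transport genes, against 30.8% of all genes (30.6% with the minimum over all 7 kidneys). Nphs1, the slit diaphragm protein nephrin, lay at 6.24 in kidney 2 and between 7.03 and 7.29 in the others. Slc6a19, the neutral amino acid transporter, lay at 8.88 against 9.97 to 11.06, and Slc5a2, the glucose transporter SGLT2, at 9.69 against 11.24 to 11.42. Gatm, which makes the creatine precursor guanidinoacetate, lay at 10.77 against 12.46 to 12.79. Dnase1, a secreted nuclease, lay at 11.02 against 12.93 to 13.79, and it was added after its values were seen. In amino acid catabolism kidney 2 was lowest in 8 of 16 genes and in oxidative phosphorylation in 11 of 22. Of 14 loop of Henle and distal tubule genes kidney 2 was lowest in 6 and highest in 4, beside 30.8% and 26.9% of all genes. Umod was at its highest, 13.62, in kidney 2, whereas Slc12a3, a distal tubule gene, was at its lowest there (11.821 against 11.855 to 12.342). Of 14 collecting duct genes kidney 2 was highest in 4 and lowest in 3, the first a share near the 26.9% of all genes.

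Tubular injury genes and some endothelial genes were high in kidney 2. It was highest in 11 of 16 injury genes, with Lcn2, the injury marker lipocalin 2, at 8.56 against 5.81 to 7.50, and Timp1, a protease inhibitor, at 7.63 against 5.86 to 6.57. Havcr1, the injury marker KIM-1, was not among these, lying at 9.51 in kidney 2 and 9.65 and 9.68 in kidneys 5 and 6. Kidney 2 was highest in 8 of 12 endothelial genes and lowest in 1. Icam1, a leukocyte adhesion molecule, was at its highest there and lay between 7.39 and 7.72 in the others. The endothelial genes Emcn and Pecam1 did not share this order. Emcn was lowest in kidney 2 (9.79 against 10.02 to 10.23), and Pecam1 was highest in kidney 3 (8.08). Extracellular matrix genes showed no such order, as kidney 2 was highest in 8 of 21, Col1a1, the type I collagen chain, lying at 7.78 there and between 6.84 and 8.30 in the others.

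**Figure D3:**
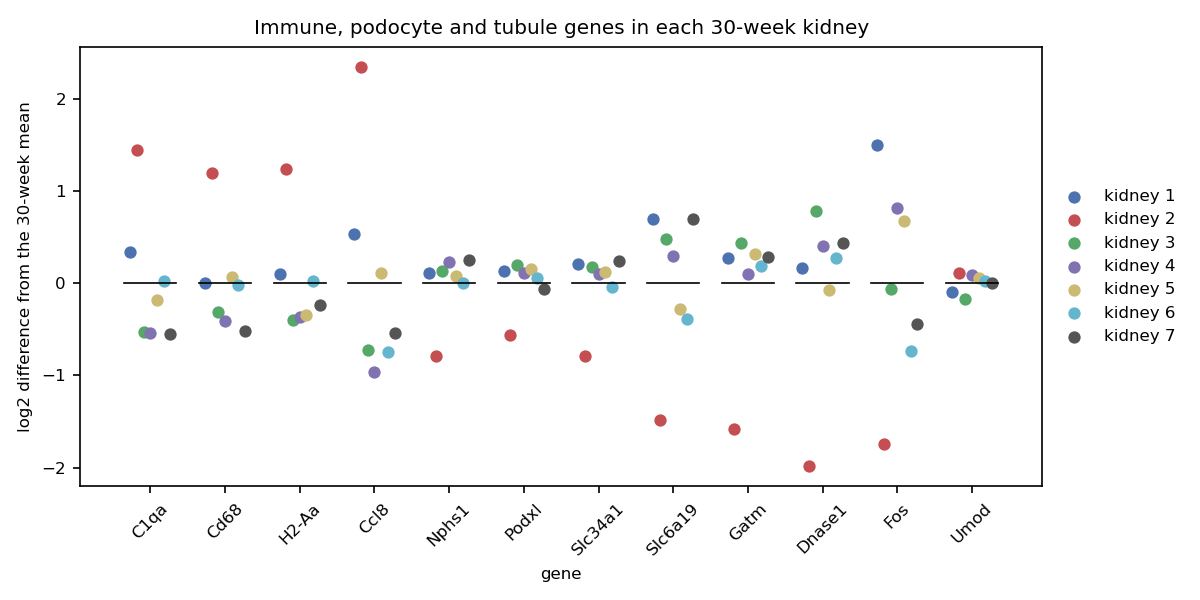
Log2 difference from the 30-week mean for immune, podocyte and tubule genes, with 1 line of points per kidney. Kidney 2 is at the top for the immune genes, such as C1qa and Ccl8, and at the bottom for Nphs1, Slc34a1, Slc6a19, Gatm and Dnase1.

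Pairs of immune and podocyte genes were tested in the same way. C1qa and Cd68, a macrophage lysosomal protein, had r = 0.97 (exact permutation p = 0.00437, adjusted p = 0.0218) and rho = 0.89 (adjusted exact permutation p = 0.041). Without kidney 2, r was 0.83 (exact permutation p = 0.0556, adjusted p = 0.153), and without kidneys 2 and 1 it was 0.89. In early remission it was 0.87 (exact permutation p = 0.00856, adjusted p = 0.0214). C1qa and Nphs1 had r = -0.935 (exact permutation p = 0.00972, adjusted p = 0.0243) and rho = -0.89 (adjusted exact permutation p = 0.041), and without kidney 2 r = -0.68 (exact permutation p = 0.143, adjusted p = 0.238). Without kidneys 2 and 1, r was -0.915 over 5 kidneys, and in early remission -0.16 (exact permutation p = 0.685, adjusted p = 0.761). C1qa and Slc34a1 had r = -0.88 (exact permutation p = 0.0482, adjusted p = 0.0804) and -0.185 without kidney 2 (exact permutation p = 0.729, adjusted p = 0.81). Of the 10 pairs, 5 were below an adjusted p of 0.05 for r with 7 kidneys and 4 in early remission. For r, 0 of the 10 pairs were below it without kidney 2, without kidney 4 or without kidney 7. One of the 5 was Cyp11b1 with Th, a medulla enzyme, whose relation at 30 weeks rests on kidneys 4 and 7, since without them r was -0.24 over 5 kidneys. In early remission this pair had r = 0.835 (exact permutation p = 0.00722, adjusted p = 0.0214) and rho = 0.833 (adjusted exact permutation p = 0.0384), and leaving out its most extreme kidneys in Cyp11b1, 3 and 6, gave r = 0.71. No pooled value is given at 30 weeks for Cyp11b1 with Th or with Fkbp5, as the kidneys fall into 2 clusters of Cyp11b1. Adjusted p-values are Benjamini-Hochberg values over the 10 pairs.

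Immunoglobulin transcripts had a spread of their own beside that of kidney 2. The 10 immunoglobulin genes, a list added after the data were seen, had a median SD of 1.08, and of 0.745 without kidney 2. Kidney 2 was highest in all 10, and kidneys 3 and 7 were the lowest in 7 of 10, against 4.81% of all genes. Ighg1, an IgG heavy chain, lay at 9.56 in kidney 2, 9.03 in kidney 1, 6.61 in kidney 3 and 6.01 in kidney 7, with a median of 7.91. Ighg2b, another IgG chain, lay at 6.44 and 7.04 in kidneys 3 and 7 and between 8.38 and 9.30 in the rest. Ighm, the IgM chain, ranged from 8.61 to 11.13, and Igkc, the kappa constant region, from 11.40 to 13.01. Jchain, which links polymeric antibodies, and Mzb1, a plasma cell chaperone, ranged from 10.13 to 12.91 and from 7.44 to 9.70, again with kidneys 3 and 7 the lowest in both.

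Single variable and lambda genes did not all keep 1 order. Ighv1-14 was highest in kidney 1 (9.72), then in kidney 2 (8.20), and lowest in kidney 3 (5.55). Iglv1, a lambda variable gene, was high in kidneys 2 (10.34), 6 (9.25) and 4 (9.02). Iglc1, a lambda constant region, was high in the same kidneys, 2 (10.20), 4 (8.48) and 6 (8.31), but lowest in kidney 5 (6.06). Igkv12-46 lay at 10.15 in kidney 2 and between 6.17 and 7.52 elsewhere. Probe sets of these families can share near-identical sequence, so the value of 1 named gene is uncertain. The spread of Ighg1 was like that of the treated NZB/W groups, with an SD of 1.27 at 30 weeks and 1.20 to 1.23 in those groups, whereas it was 0.14 in NZM2410. The list as a whole was less alike. Its median SD of 1.08 at 30 weeks stood beside 0.743 in early remission, 1.25 in the TACI-Ig group and 1.04 after late triple therapy. In NZM2410 it was 0.345.

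Lipid genes divided the kidneys in another way. Kidney 5 was the highest in 9 of 11 sterol synthesis genes, against 13% of all genes, and kidneys 4 and 6 were the lowest in 5 of 11, against 6.2%. Insig1, a sensor of the sterol pathway, was highest in kidney 5 and lay at 7.70 in kidney 7, 7.03 to 7.21 in kidneys 1 to 3, and 6.76 and 6.52 in kidneys 4 and 6. Msmo1, a sterol demethylation enzyme, ranged from 7.74 in kidney 4 to 9.65 in kidney 5. Fatty acid synthesis, a list added after the data were seen, had the same ends, with kidney 5 highest in 7 of 13 genes and kidneys 4 and 6 the lowest in 4. Fasn, the fatty acid synthase, lay at 10.80 in kidney 5 and 10.78 in kidney 7, and at 9.13 and 9.24 in kidneys 4 and 6. Thrsp, a lipogenic nuclear protein that is also on the adipose list, lay at 8.40 and 7.82 in kidneys 4 and 6 and between 9.12 and 10.32 in the others. Srebf1, the transcription factor of lipogenesis, ranged from 8.19 in kidney 6 to 9.59 in kidney 5.

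Fat oxidation ran against synthesis. Kidneys 4 and 6 were the highest in 9 of 22 genes of fatty acid oxidation and PPAR targets, against 3.82% of all genes. Pdk4, the kinase that spares glucose in fasting, lay at 9.68 and 9.87 in kidneys 4 and 6, and at 8.42 in kidney 5. Vnn1, a pantetheinase and PPAR alpha target, lay at 10.36 and 10.10 in kidneys 4 and 6 and between 8.88 and 9.56 elsewhere. Angptl4, an inhibitor of lipoprotein lipase, was highest in kidney 6 (9.86) and lowest in kidney 5 (7.67), but kidney 3 (9.72) was above kidney 4 (9.55). The sterol and fatty acid synthesis scores had r = 0.95, or 0.97 without kidney 2. The fatty acid synthesis and oxidation scores had r = -0.72, or -0.92 without kidney 2, over 6 kidneys. Score correlations are descriptions, since the scores were formed on the same arrays and lists can move with 1 kidney. No record of feeding stood in the labels.

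Smaller sets belonged to single kidneys. Alb, serum albumin, lay at 10.34 in kidney 5 and between 7.80 and 8.37 in the others, and Apoa2, an apolipoprotein, at 8.31 against 6.38 to 6.95. Kidney 5 was the highest in 5 of 9 liver genes, a list added after the data were seen, and in 6 of 12 ER stress genes, against 13% of all genes. Hspa5, the chaperone BiP, lay at 12.12 in kidney 5 against 11.19 to 11.84. The mean log2 value of the 9 liver genes with a group mean of at least 6 ranged from 8.76 to 9.74, and their part in the values of kidney 5 was not tested. Alas2, the erythroid heme enzyme, lay between 7.83 and 8.10 in kidneys 1, 2 and 3 and between 5.21 and 6.42 in the others, and it was the only red cell gene above the minimum. Ucp1, the uncoupling protein of brown fat, ranged from 7.51 in kidney 3 to 9.86 in kidney 4, while Adipoq, adiponectin, ranged from 9.42 to 10.56. The tested correlation of Adipoq with Ucp1 was 0.13 (exact permutation p = 0.772, adjusted p = 0.772).

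Immediate early genes varied widely in a few members. Fos, a subunit of AP-1, lay at 9.62 in kidney 1, 8.94 in kidney 4, 8.80 in kidney 5 and 6.38 in kidney 2, with a median of 8.05. Dusp1, a MAP kinase phosphatase, ranged from 9.22 in kidney 2 to 11.43 in kidney 4. Kidney 2 was the lowest in 8 of 16 genes that passed the minimum without it, against 30.8% of all genes. Fos and Egr1, a zinc finger factor, had r = 0.92 (exact permutation p = 0.00179, adjusted p = 0.0179) and rho = 0.96 (adjusted exact permutation p = 0.0278). Without kidney 2, r was 0.91 (exact permutation p = 0.00694, adjusted p = 0.0694) and rho was 1 (adjusted exact permutation p = 0.0278), and without kidneys 2 and 1 r was 0.895. In early remission r was 0.98 (exact permutation p = 0.000223, adjusted p = 0.00112). Other members were steady, with an SD of 0.06 for Egr3 and 0.10 for Btg2.

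At the other end, respiratory chain and reference genes had median SDs slightly below the 0.14 of all genes. The 22 oxidative phosphorylation genes had a median SD of 0.11. None reached 0.5, but only 2.21% of all genes did, so this sets them little apart. Cox4i1, a subunit of cytochrome c oxidase, lay between 13.30 and 13.36, 1 of the 5 lowest SDs together with Tbpl1, Bicral, Thada and Alg9 (0.02 to 0.03). The 6 reference genes had a median SD of 0.12. Hprt, of purine salvage, had an SD of 0.05 (10.35 to 10.48), whereas Actb, the actin often used to scale expression, had an SD of 0.22 (12.59 to 13.22). Loop of Henle and distal tubule genes (median SD 0.21, 14 genes) and collecting duct genes (0.25, 14 genes) were above the median of all genes. They too held no gene with an SD of 0.5, which 2.21% of all genes reached.

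**Figure D4:**
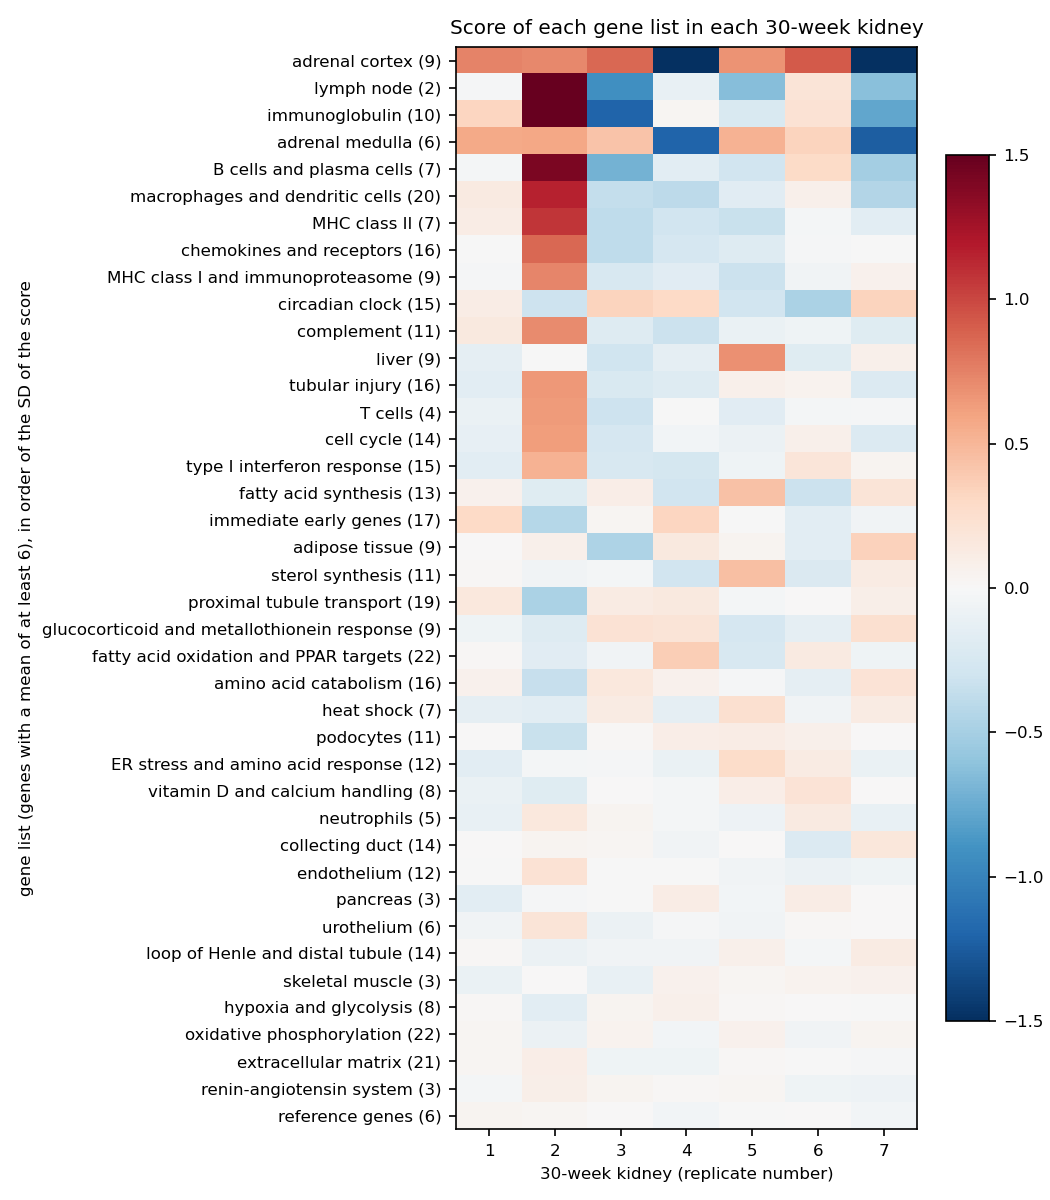
Score of each gene list (mean log2 deviation of its genes from their 7-kidney means, colour) in each of the 7 kidneys. The adrenal cortex score is -1.76 in kidney 4 and -2.16 in kidney 7 and 0.68 to 0.92 in the others, and the immune lists are high in kidney 2 (1.16 for macrophages and dendritic cells).

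The wide genes were set against the adrenal cortex, clock, immunoglobulin, macrophage, fatty acid synthesis and oxidation, liver, immediate early and glucocorticoid scores only. Podocyte, proximal tubule, tubular injury and other immune lists were not among these. Of the 236 genes with an SD of at least 0.5, 97 had a correlation of at least 0.9 in size with the macrophage score as their nearest list (87 positive and 10 negative). Of these 97, 14 are in that list, and the 236 were chosen by a spread that kidney 2 widens. Another 20 followed the adrenal cortex score, 14 the immunoglobulin score and 11 the clock score. Smaller numbers followed other lists, and 79 followed none at that limit. Without kidney 2 the picture narrowed to 106 genes, of which 20 followed the adrenal cortex, 9 the clock, 7 fatty acid synthesis, 5 the liver list and 4 each the immunoglobulin and macrophage scores, and 52 followed none. Between lists, 143 of 741 pairs of scores had a correlation above 0.8 in size with 7 kidneys and 43 without kidney 2, with 23 pairs in both. The macrophage score had r = -0.87 with the podocyte score and -0.89 with the proximal tubule score, which became 0.03 and -0.20 without kidney 2. With the immunoglobulin score it had r = 0.91 and 0.74 without kidney 2, and with MHC class II 0.96 and 0.75. The tubular injury and proximal tubule scores were opposed with r = -0.98 and -0.89 without kidney 2. The tubular injury and clock scores were opposed as well, with r = -0.72 and -0.97 without kidney 2.

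The overall spread of the 30-week kidneys was set beside that of the treated groups. On the same genes the median SD was 0.14 at 30 weeks, 0.139 in early remission, 0.144 in the late triple therapy group, 0.182 in the TACI-Ig group and 0.119 in NZM2410. With kidney 2 the 30-week value lay above that of NZM2410. Without kidney 2 it was 0.114, but no sample was left out of the other groups, so this value is not ranked against theirs. Of the 533 genes in the top 5% at 30 weeks, 52.2% were also in the top 5% in early remission, 58.9% in the TACI-Ig group, 61.4% in the late triple therapy group and 48.8% in NZM2410. By list, macrophage genes had a median SD of 0.595 at 30 weeks, 0.335 in early remission and 0.768 in the TACI-Ig group. It was 0.605 in the late triple therapy group and 0.6245 in NZM2410. Without kidney 2 the 30-week value was 0.255, again with no sample left out of the other groups. Adrenal cortex genes had median SDs of 1.96, 1.70 and 0.175 at 30 weeks, in early remission and in the TACI-Ig group. In the late triple therapy group and NZM2410 theirs were 0.293 and 0.156. Clock genes had 0.51, 0.41 and 0.27 in the same 3 groups, 0.41 in the late triple therapy group and 0.63, the highest, in NZM2410.

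**Figure D5:**
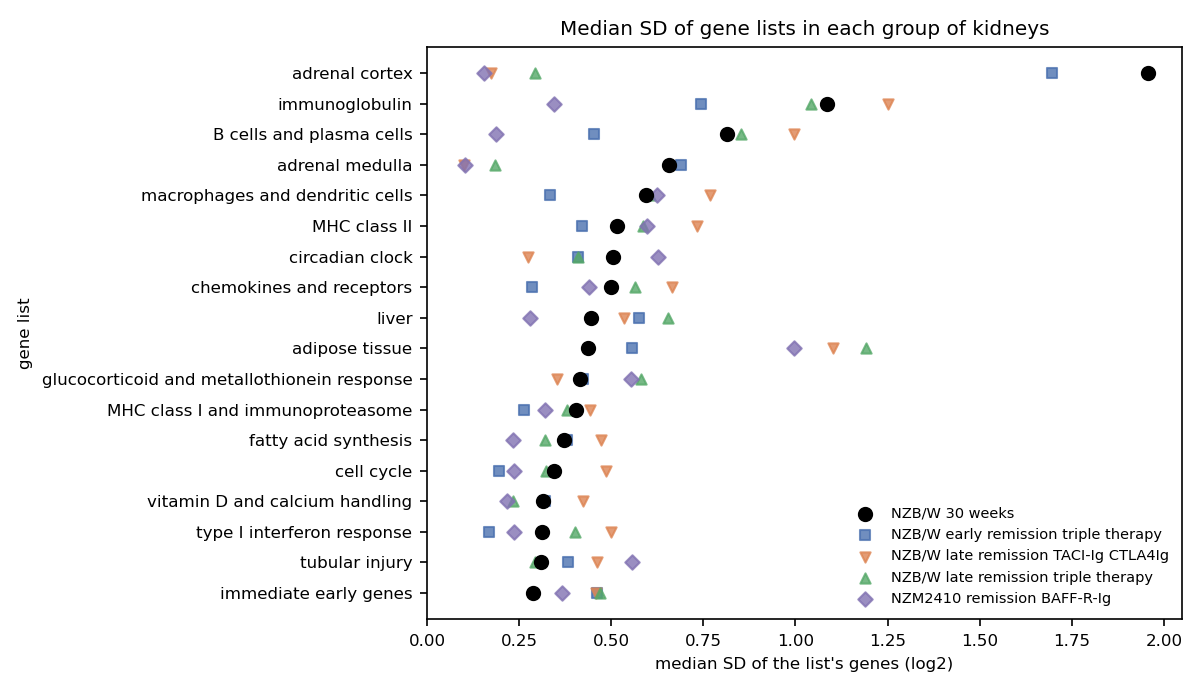
Median SD (log2) of the genes of a list in each group of kidneys, with 1 point per group. The lists shown are those with the highest median SD at 30 weeks, without lists of 1 or 2 genes. Adrenal cortex genes are at 1.96 at 30 weeks and 1.70 in early remission but at 0.175 in the TACI-Ig group. Clock genes lie between 0.273 (TACI-Ig group) and 0.626 (NZM2410) in all 5 groups.

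The difference in spread was tested gene by gene with limma on the absolute deviations of each sample from its group mean, over all 15780 genes. Against early remission, 0 genes had a wider and 0 a narrower spread at 30 weeks at an adjusted p under 0.05 (0% in each direction), with 413 and 332 at an unadjusted p under 0.05. The smallest adjusted p in limma was 0.242, for Fbxl21 and Il18bp, named here after their values were seen. Against the TACI-Ig group the counts were 0 and 0 (0%), with 198 and 1802 at an unadjusted p under 0.05. Both comparisons share the 30-week kidneys. In simulated data of these sizes, a 4-fold ratio of SDs in 200 genes was recovered for 40.5% of them in the first comparison and 9% in the second. Differences of that size could thus be missed. The simulation used normal noise with the median SD for all other genes and no outlying sample, unlike these data, so the shares are only a rough guide. Without kidney 2, the TACI-Ig comparison gave 25 genes wider and 449 narrower at 30 weeks, and leaving out single TACI-Ig samples gave 0 to 5 wider and 5 to 181 narrower. The wider genes without kidney 2 included Cyp11b1, Cyp11a1, Star, Chgb, Chga, Th, Dbp and Per1, with limma adjusted p-values from 0.0202 to 0.049 over the 25. Of these, Cyp11b1, Cyp11a1, Star, Chgb, Chga and Dbp were already among the 25 widest genes by SD. Kidney 2 was singled out after the data were seen, and without it the median SD at 30 weeks was 0.114. The counts and p-values without it are therefore not support for a difference in spread.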

How the data were processed

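Expression was measured in 32 whole kidneys of 5 groups. The deposited values are log2 expression made by the authors with RMA, 1 probe set per Entrez gene. Normalization and batch correction covered all arrays at once, per the methods of the study, but the batches and the RMA version are not given in the sources used here. Perfused kidneys and Trizol RNA were used. Of 16539 probe sets, 64 array controls and 695 without a name were left out, and 15780 named genes were kept, 15752 of them in the RefSeq table. Values were used as deposited, and arrays give no depth, so their number limits the precision.

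Genes were ranked by SD over the 7 kidneys of 30 weeks where the group mean was at least 6. There were 38 gene lists of 570 genes fixed at the outset, and 3 lists added later (liver, fatty acid synthesis, immunoglobulin). Members and lists were chosen with earlier results of these data known. A list score is the mean deviation of its genes with a mean of at least 6. Named genes were the 25 with the highest SD, the 20 with the highest SD without kidney 2, up to 4 of each list by SD, the 5 with the lowest SD, the tested pairs, up to 5 called genes per direction in each comparison, and Actb, Gapdh and Hprt. Other genes are list members or, where so stated, were chosen after their values were seen.

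Absolute deviations from the group mean were compared between groups by moderated linear models (limma 3.58.1 under R 4.3.3, Benjamini-Hochberg adjustment over all genes, threshold 0.05), after a test on simulated data. Of 12 gene pairs, 10 were measured on both sides and tested with exact two-sided permutation tests in scipy 1.17.1. The alternatives were a repeated quantile normalization, median centring, other filters, the median absolute deviation, deviations from the median, squared deviations, another prior, the replicate number as a block, and each kidney left out in turn. Added after seeing the data were the 3 lists, the same pairs in early remission, and a mean filter over only the kidneys that an order does not name.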

Additional observations from a re-analysis of the deposited data

Results flagged for a closer look

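In the 7 kidneys, 14 of 40 list scores and 2 of 29 single genes had 1 kidney set apart from the rest by a gap larger than Dixon's 95% limit. Chance sets apart about 1 in 20 groups, and the lists share samples and some move together. The single genes were those with the highest SD over the same kidneys, a choice that favours such gaps, so their count is not set against chance.

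In 13 of the 14 lists the kidney was kidney 2. Its scores on the log2 scale were high for lymph node genes (2.13), macrophages and dendritic cells (1.16), MHC class II (1.07), chemokines and receptors (0.86), MHC class I with the immunoproteasome (0.74), tubular injury (0.65), T cells (0.64), cell cycle (0.63), endothelium (0.22) and urothelium (0.19). They were low for proximal tubule transport (-0.47), podocytes (-0.34) and hypoxia with glycolysis (-0.15). The lymph node score rests on 2 genes and the T cell score on 4, and Glycam1 and Cd3d passed the minimum only through kidney 2. With the minimum taken over the other 6 kidneys, a choice made after seeing the data, 13 of 39 scores of at least 2 genes had a kidney set apart, 12 of them kidney 2. The T cell score was then 0.46, and 1 lymph node gene, Ltb, was left. The 2 genes set apart were Glycam1 (9.28) and Igkv12-46 (10.15), both in kidney 2. Its 3' over 5' differences for actin, Gapdh and pyruvate carboxylase were the highest of the 7, and their part in these scores was not tested.

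The other list was that of liver genes in kidney 5 (0.69), which was added after the data were seen.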

How the results depend on the processing

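The median SD kept its size under all alternatives (0.112 to 0.144). The count of genes with an SD of at least 1 was 30, and 16 with the median absolute deviation and 18 to 35 with 1 kidney left out, the 18 being without kidney 2. The count with an SD of at least 0.5 was 236, and 135 with the median absolute deviation and 106 to 273 with 1 kidney left out, the 106 being without kidney 2. Against early remission, 0 to 1 genes were wider and 0 narrower with 1 kidney left out. Against the TACI-Ig group, 0 to 25 were wider and 0 to 449 narrower. The 25 and 449 were without kidney 2 of the 30-week group. Leaving out TACI-Ig sample 1 gave 23 narrower, sample 2 gave 5 wider and 181 narrower, sample 3 gave 1 wider and 123 narrower, sample 4 gave 8 narrower and sample 5 gave 5 narrower. The cause was not tested. All other alternatives gave 0 in each direction.

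With the replicate number as a block, 0 genes were called in either direction in both comparisons. The numbers do not pair the samples: same-numbered samples had correlations from -0.112 to 0.409 against early remission, 3 of 7 over 0.1, and from -0.744 to 0.03 against the TACI-Ig group, 0 of 5 over 0.1.

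Adipoq and Ucp1 reversed without kidney 3 (r = -0.479), and r ranged up to 0.396 with 1 kidney left out. Of the other results for gene pairs, 56 kept their side of the threshold, 22 lost the call and 1, C1qa with Slc34a1 without kidney 1, gained it. All 5 pairs called by r lost that call without kidney 2, 4 or 7, while Fos with Egr1 stayed called by rho without kidney 2 (adjusted exact permutation p = 0.0278). For lists, 19 of the median SDs moved by more than the spread and 350 did not.

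Whole kidneys, 7 samples, unnamed batches and no record of collection time or feeding limit what these spreads can be tied to. A difference in SD of 4-fold was recovered in simulated data for 40.5% of genes against early remission and 9% against the TACI-Ig group.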
